A study of Homo sapiens with 18 samples.

Results

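A set of 8 homeobox genes that act at the posterior end of the vertebrate embryo was followed across PCGF6-deficient human pluripotent stem cells. They were CDX1, CDX2, CDX4, EVX1, EVX2, GBX2, MNX1 and NKX1-2, picked by name, and all 8 were found among the 57133 genes of the count table. A filter on low counts kept 7 of them, out of 17672 genes kept in all, and EVX2 did not pass it. The cells were PGP1, a human induced pluripotent stem cell line kept in mTeSR1 on Matrigel. PCGF6 had been knocked out with CRISPR-Cas9 and a pair of guide RNAs aimed at its first exon. RNA was sequenced from 2 libraries of unedited wild-type (WT) cells and from 2 libraries of each of 2 PCGF6-knockout (PCGF6-KO) lines, called clone 1 and clone 2. Each clone grew from a single edited cell, so a difference between a clone and WT cannot be told apart from a difference particular to that clone. Nothing in the labels says that the libraries of a group came from separate cultures, and the p-values measure only the spread between these libraries.

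PCGF6 is the defining subunit of PRC1.6, a variant Polycomb repressive complex that contains the DNA-binding proteins MAX, MGA and E2F6. The genes described here encode homeodomain transcription factors that are silent or low in the epiblast and become active in the primitive streak, the tail bud and the posterior neural tube as the body axis extends. The CDX proteins are caudal-type factors that bind HOX genes and pattern the trunk and tail, and CDX2 also specifies trophectoderm and intestine. EVX1 and EVX2 are even-skipped homologs that lie beside the HOXA and HOXD clusters. NKX1-2 marks the preneural cells beside the streak, GBX2 marks the posterior neural plate behind the midbrain, and MNX1 is known from motor neurons, the notochord and the pancreas.

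The libraries held between 15877396 and 18918609 counts, so that 3 counts, the floor used here for a gene with no counts, equalled 0.157 to 0.187 CPM. Values in CPM (counts-per-million) are scaled by each library's total after TMM adjustment, which corrects for differences in composition. Replicates of a group differed by more than counting error, with a chi-square per degree of freedom of 2.59 in WT cells, 5.23 in clone 1 and 3.43 in clone 2 over 13420 genes. PCGF6 itself had 268 and 300 counts in WT cells, 99 and 103 in clone 1, and 187 and 159 in clone 2. It was lower in every PCGF6-KO library (log2 fold change −1.15 ± 0.27 SE, edgeR adjusted p = 0.00914), and it was higher in clone 2 than in clone 1 by 0.90 on the log2 scale (edgeR adjusted p = 5.443e-05). These counts run over the whole gene and do not show the edited part. In bulk RNA, a change in the number of cells that express a gene cannot be told apart from a change in the RNA per cell. Among 12 pluripotency markers, 4 fell (ZFP42, PRDM14, DNMT3B and SOX2), where 8.70% of all tested genes fell. SOX2 was called in clone 2 and not in clone 1 (327 CPM in both WT libraries, 245 to 246 CPM in clone 1 and 153 to 166 CPM in clone 2), and it was also called lower in clone 2 than in clone 1. POU5F1 read 1492 and 1499 CPM in WT against 1416 to 1625 CPM in the PCGF6-KO libraries.

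The 8 genes lie on 6 chromosomes (GENCODE release 44, GRCh38). CDX1 spans chr5:150166778-150184558 on the plus strand, CDX2 chr13:27960918-27969315 on the minus strand, and CDX4 chrX:73447053-73455171 on the plus strand. EVX1 spans chr7:27242700-27250493 on the plus strand and EVX2 chr2:176077472-176083962 on the minus strand. GBX2 (chr2:236165236-236168386), MNX1 (chr7:156994051-157010663) and NKX1-2 (chr10:124445243-124450035) are all on the minus strand. EVX1 and GBX2 overlap antisense genes on the opposite strand, with 532 exonic bases shared between EVX1 and EVX1-AS and 221 between GBX2 and GBX2-AS1, and NKX1-2 shares 1212 exonic bases with an antisense long noncoding RNA. Whether the counting used the strand is not given in the sources used here, so reads of these genes and of their antisense partners cannot be told apart.

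RefSeq promoters (GRCh38.p14, 300 bases from 250 before to 50 after the start) were found for 7 of the 8 genes. Each was searched on both strands for CACGTG, an E-box that MAX dimers bind, GCGGGAA, an E2F site, TTTATG, a CDX site, and CTTTGAA and CTTTGAT, TCF/LEF sites. Of the 7 genes, 2 had a match. GBX2 carried CACGTG, which 7.26% of 35116 promoters hold, 62 bases before its start. CDX2 carried CTTTGAA, which 4.43% of promoters hold, 238 bases before its start. GCGGGAA (6.55% of promoters), TTTATG (10.6%) and CTTTGAT (2.62%) were not among the letters of these windows. The 250 bases before each start follow, written 5′ to 3′ on the strand of the gene with the match in capitals, for GBX2 at chr2:236168387-236168636 (minus strand) and CDX2 at chr13:27969316-27969565 (minus strand), since these are the windows that held one.
GBX2: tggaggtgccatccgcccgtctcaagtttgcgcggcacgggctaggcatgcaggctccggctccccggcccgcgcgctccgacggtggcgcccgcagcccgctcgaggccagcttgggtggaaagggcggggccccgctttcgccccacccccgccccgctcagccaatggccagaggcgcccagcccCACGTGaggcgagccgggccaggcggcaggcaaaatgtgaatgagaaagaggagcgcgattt
CDX2: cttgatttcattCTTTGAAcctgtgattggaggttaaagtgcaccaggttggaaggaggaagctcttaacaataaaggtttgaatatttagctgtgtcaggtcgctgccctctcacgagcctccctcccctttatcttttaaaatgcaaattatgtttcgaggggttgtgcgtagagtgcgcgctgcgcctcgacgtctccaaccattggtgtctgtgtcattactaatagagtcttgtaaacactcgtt

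The promoters also differed in CpG content. Polycomb complexes are known to gather at CpG islands. NKX1-2 held 41 CpG dinucleotides in its 300 bases and GBX2 held 36, against a median of 14 and an upper quartile of 28 over all promoters. MNX1 had 44 and 24 at its 2 starts. EVX1 had 17, CDX2 16 and EVX2 15, close to the median. CDX4 stood at the other end with 4, the lower quartile of all promoters. NKX1-2 and CDX4, whose transcripts were the most abundant of the 8 in WT, are shown because their CpG numbers lie far apart, with each CpG in capitals (36 and 3 of them in the 250 bases shown), at chr10:124450036-124450285 (minus strand) and chrX:73446803-73447052 (plus strand).
NKX1-2: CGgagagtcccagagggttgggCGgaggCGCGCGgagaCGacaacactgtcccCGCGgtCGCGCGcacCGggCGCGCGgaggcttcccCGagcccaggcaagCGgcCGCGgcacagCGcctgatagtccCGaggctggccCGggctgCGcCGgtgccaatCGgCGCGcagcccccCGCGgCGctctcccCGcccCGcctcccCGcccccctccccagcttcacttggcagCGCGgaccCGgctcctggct
CDX4: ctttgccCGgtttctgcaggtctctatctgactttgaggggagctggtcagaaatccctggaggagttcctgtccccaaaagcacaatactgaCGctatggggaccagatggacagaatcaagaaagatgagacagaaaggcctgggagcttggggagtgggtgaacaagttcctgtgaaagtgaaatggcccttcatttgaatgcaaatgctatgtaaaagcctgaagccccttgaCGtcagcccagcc

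All 8 genes read higher in every PCGF6-KO library than in either WT library, a pattern that 29.5% of all tested genes showed. Their summed level was 25.4 and 30.4 CPM in WT cells, 362 and 400 CPM in clone 1, and 487 and 504 CPM in clone 2. By the quasi-likelihood test of edgeR, adjusted after Benjamini and Hochberg over all tested genes, the 7 that passed the filter were called higher in PCGF6-KO at an adjusted p under 0.05 and a log2 fold change over 0.6, where 14.9% of all tested genes were. The same 7 were called higher in clone 1 (16.0% of all tested genes) and in clone 2 (16.9%), and these comparisons share the WT libraries. Only NKX1-2 and CDX4 had enough WT counts to pass the filter without the PCGF6-KO libraries. CDX1, CDX2, EVX1, GBX2 and MNX1 passed through the libraries in which they were high, so the count of 7 carries no weight beyond the values of each gene.

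**Figure D1:**
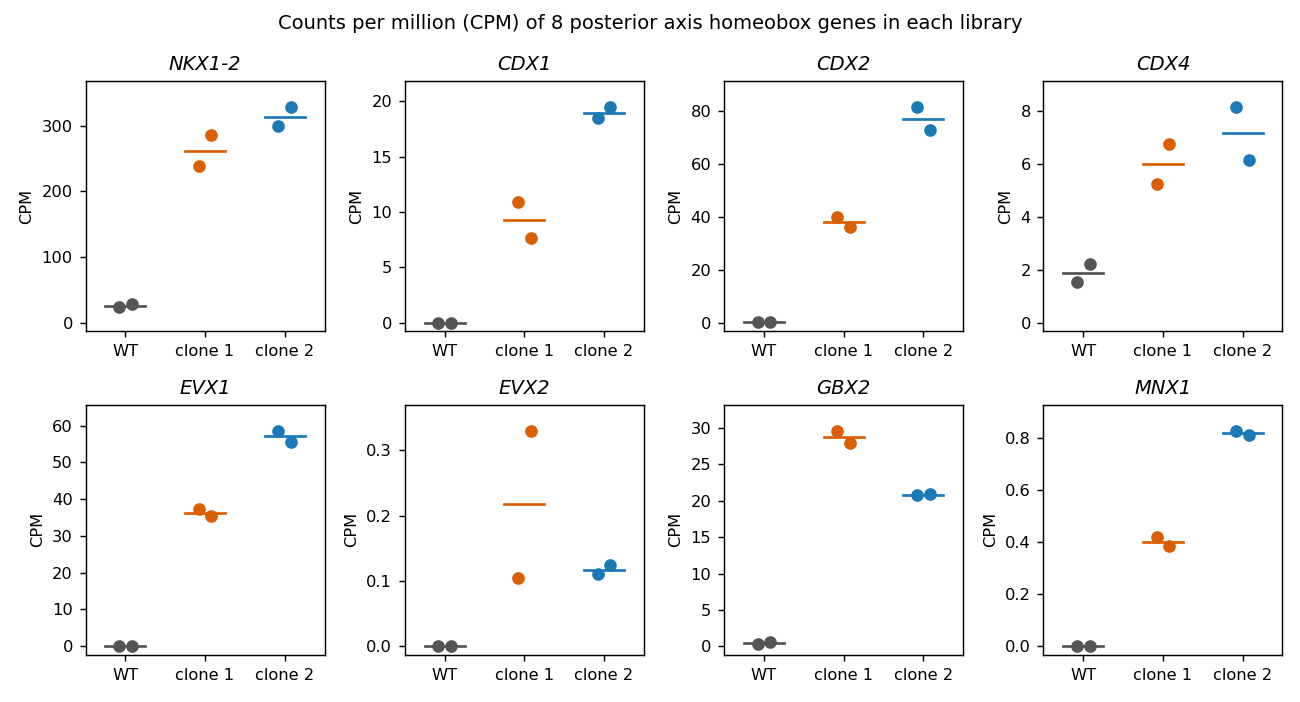
Level of each of the 8 genes in counts-per-million (CPM, vertical axis, a separate scale per gene) in the 2 libraries each of WT, clone 1 and clone 2, with points for libraries and lines for group means. Every PCGF6-KO point lies above both WT points, CDX1, CDX2, EVX1, MNX1 and NKX1-2 are higher in clone 2 than in clone 1, and GBX2 is higher in clone 1.

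The caudal genes were nearly silent in WT apart from CDX4. CDX2, the caudal factor of trophectoderm, tail bud and hindgut, had 1 count in each WT library, 762 and 660 in clone 1, and 1481 and 1169 in clone 2. These were 0.0614 and 0.0599 CPM in WT cells, 39.9 and 36.3 CPM in clone 1, and 81.7 and 72.9 CPM in clone 2. The 3 groups did not overlap, and clone 2 lay at the top. The ratio of PCGF6-KO to WT was 939, with an exact 95% interval of 260 to 7758 that covers counting error only (edgeR adjusted p = 2.026e-05). Clone 1 stood 629-fold above WT (interval 174 to 5195) and clone 2 1278-fold (354 to 10560).

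CDX1, the caudal paralog that acts early in streak and trunk mesoderm, had no counts in WT. It had 208 and 139 counts in clone 1 (10.9 and 7.65 CPM) and 335 and 313 in clone 2 (18.5 and 19.5 CPM). Both clone 2 libraries lay above both clone 1 libraries. Against the floor of 3 counts per library, CDX1 was at least 77.6-fold higher in PCGF6-KO (edgeR adjusted p = 0.0001532), at least 50.9-fold in clone 1 and at least 104-fold in clone 2. Such floors, like the intervals above, cover counting error only.

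CDX4, the X-linked caudal gene of the tail bud, differed from both in that it was already detected in WT, with 25 and 37 counts (1.54 and 2.22 CPM). It had 100 and 123 counts in clone 1 (5.23 and 6.77 CPM) and 148 and 99 in clone 2 (8.16 and 6.17 CPM). All 4 PCGF6-KO libraries exceeded both WT libraries, while the libraries of clone 1 and clone 2 overlapped. The log2 fold change was 1.81 ± 0.26 (SE), or 3.49-fold (edgeR adjusted p = 0.0006905). It was 3.18-fold in clone 1 (edgeR adjusted p = 1.922e-06) and 3.82-fold in clone 2 (edgeR adjusted p = 1.073e-07).

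Per length, in TPM (transcripts-per-million), the 3 caudal genes together reached 4.57 and 6.59 in WT cells, 83.8 and 77.5 in clone 1, and 146 and 135 in clone 2. CDX4 gave 98.6% and 99.0% of that sum in WT but only 12.4% to 25.3% in the PCGF6-KO libraries. CDX2 gave 50.0% to 55.5% of it in PCGF6-KO, and CDX1 gave 24.7% to 33.8%. The leading caudal transcript was thus CDX4 in WT and CDX2 in both clones.

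**Figure D2:**
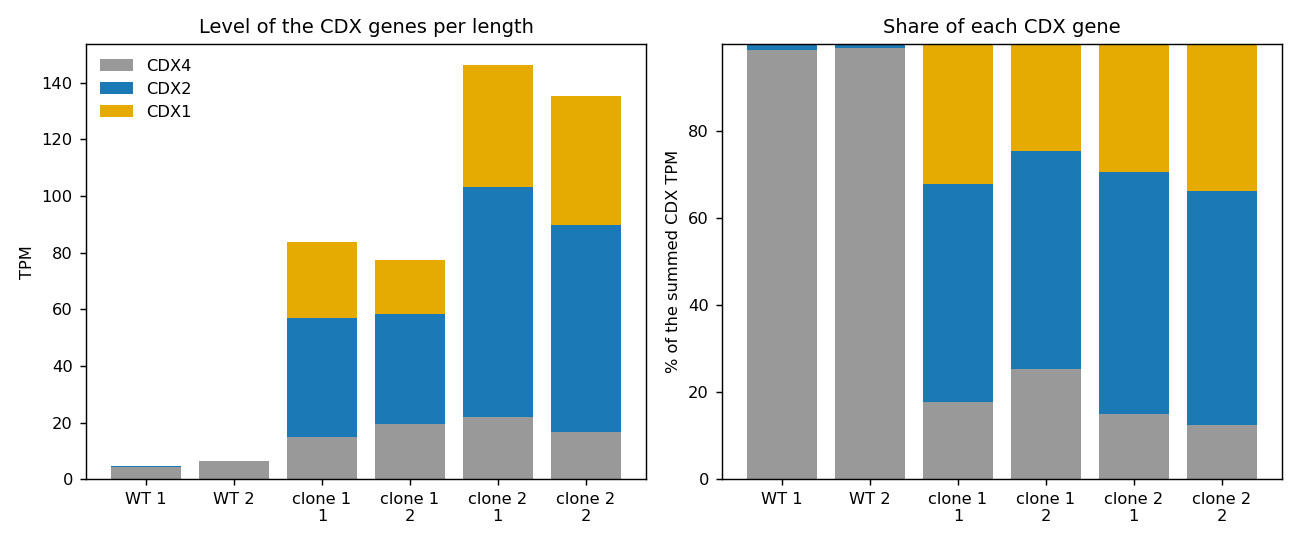
Summed level of CDX1, CDX2 and CDX4 per length (TPM, left) and the percentage of that sum from each gene (right), with a bar for each library. CDX4 makes up 98.6% and 99.0% of the sum in WT, and CDX2 makes up 50.0% to 55.5% in the PCGF6-KO libraries.

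CDX2 is a marker of trophoblast and intestine as well as of the tail bud, and markers of both tissues were read beside it. Of 13 trophoblast markers, 7 were tested and 5 rose in PCGF6-KO, where 14.9% of all tested genes did: TFAP2A, GATA3, GATA2, TFAP2C and ERVW-1. Of the 5, TFAP2A, GATA2 and ERVW-1 passed the filter only through the PCGF6-KO libraries. The count of 5 therefore carries no weight beyond the values of each gene. KRT7 of the same list was called lower in clone 2, both against WT and against clone 1 (3.93 and 2.82 CPM in WT cells, 3.24 and 3.08 CPM in clone 1, and 1.99 and 1.18 CPM in clone 2). PGF was called higher in clone 2 against WT only (2.70 and 3.48 CPM in WT cells and 5.52 and 4.74 CPM in clone 2). GATA3 read 0.921 and 0.659 CPM in WT cells, 15.7 and 13.2 CPM in clone 1, and 25.8 and 24.1 CPM in clone 2. The 13 markers summed to 16.8 to 17.3 CPM in WT cells, 129 to 132 CPM in clone 1 and 158 to 160 CPM in clone 2. TFAP2C alone was the largest part of each sum, at 8.35 and 8.03 CPM in WT, 82.8 and 89.9 CPM in clone 1, and 91.3 and 95.1 CPM in clone 2. GCM1, TP63, CGA and SIGLEC6 had at most 9 counts in any library. VGLL1 was at 0 in all libraries, ELF5 had 2 counts in 1 library of clone 2 and none elsewhere, and GATA2, GATA3 and TFAP2A are also active outside trophoblast. Of 12 intestinal markers, 4 were tested and 2 rose, where 14.9% of all tested genes did. The 2 were HNF4A (at least 2.80-fold) and VIL1 (log2 fold change 1.03 ± 0.31 SE, edgeR adjusted p = 0.02947). HNF4A had no counts in WT and passed the filter only through the PCGF6-KO libraries. VIL1 was called in clone 1 (log2 fold change 1.42) and not in clone 2 (0.47), and it was lower in clone 2 than in clone 1. CDH17 was not tested, with 7 and 8 counts in WT and at most 5 in any PCGF6-KO library. The intestinal sum was 44 to 44.7 CPM in WT cells, 74.9 to 76.3 CPM in clone 1 and 45.2 to 48.8 CPM in clone 2. GUCY2C and VIL1 made up most of it. GUCY2C, not called, read 25.5 and 24.9 CPM in WT, 26.0 and 25.7 CPM in clone 1, and 19.5 and 20.4 CPM in clone 2. VIL1 read 16.8 and 18.9 CPM in WT, 48.5 and 46.9 CPM in clone 1, and 26.6 and 22.8 CPM in clone 2. SI, ALPI, FABP1 and FABP2 had at most 3 counts in any library. The part of these cell types in the CDX2 level was not tested.

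EVX1, the even-skipped factor of the posterior streak, had no counts in WT. It had 714 and 642 counts in clone 1 (37.3 and 35.3 CPM) and 1063 and 890 in clone 2 (58.6 and 55.5 CPM). The replicates lay close together and the clones did not overlap. EVX1 was at least 257-fold higher in PCGF6-KO (edgeR adjusted p = 7.128e-06), at least 200-fold in clone 1 and at least 313-fold in clone 2, the largest bounds of the 3 tested genes that were at 0 in both WT libraries. Its antisense partner EVX1-AS had no counts in WT cells, 99 and 61 in clone 1, and 101 and 90 in clone 2 (at least 27.1-fold, edgeR adjusted p = 4.008e-05). Reads on the 532 exonic bases shared by EVX1 and EVX1-AS cannot be told apart, since the strand setting is not given.

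EVX2, the paralog beside the HOXD cluster, stayed at the limit of detection. It had no counts in WT cells, 2 and 6 in clone 1, and 2 in each library of clone 2. The counts were above 0 in all 4 PCGF6-KO libraries but did not pass the filter. Without a filter, over 34055 genes, edgeR gave an adjusted p of 0.08876 for PCGF6-KO against WT. No fold is given, since both groups were close to the floor. EVX1 and EVX2 are close relatives, and at these levels they differed widely in both clones (47.3 against 0.227 TPM in clone 1, and 69.9 against 0.115 TPM in clone 2).

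The HOX gene next to each EVX gene was read from the same table. HOXA13, 42.6 kb from EVX1, had no counts in WT cells, 62 and 83 in clone 1, and 131 and 122 in clone 2 (at least 31.1-fold, edgeR adjusted p = 0.0001985). HOXD13, 8.76 kb from EVX2, had 1 count in each WT library, 40 and 37 in clone 1, and 47 and 48 in clone 2. Per length, EVX2 lay below HOXD13 in every PCGF6-KO library (0.108 to 0.345 against 4.00 to 5.51 TPM), whereas EVX1 lay above HOXA13 (46.3 to 71.6 against 2.77 to 6.17 TPM).

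NKX1-2, the gene of the preneural cells, was the most abundant of the 8 in every group. It had 382 and 460 counts in WT (23.5 and 27.6 CPM), 4556 and 5193 in clone 1 (238 and 286 CPM), and 5414 and 5269 in clone 2 (299 and 328 CPM). It was the only one above 20 CPM in WT, and the groups did not overlap. The log2 fold change was 3.49 ± 0.15 (SE), or 11.3-fold (edgeR adjusted p = 5.6e-07), with 10.3-fold in clone 1 and 12.3-fold in clone 2. NKX1-2 made up 85.7% and 82.5% of the summed TPM of the 8 genes in WT, and 58.7% to 67.8% in the PCGF6-KO libraries.

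GBX2, the factor of the posterior neural plate, had 5 and 10 counts in WT cells, 567 and 509 in clone 1, and 377 and 336 in clone 2. These were 0.307 and 0.599 CPM in WT cells, 29.7 and 28.0 CPM in clone 1, and 20.8 and 20.9 CPM in clone 2. Both clones were far above WT, with clone 1 the higher. The log2 fold change was 5.75 ± 0.31 (SE), or 53.9-fold (edgeR adjusted p = 2.193e-06), with 62.4-fold in clone 1 and 45.2-fold in clone 2. GBX2 is known to oppose OTX2, the factor of forebrain and midbrain. OTX2 read 72.0 and 72.1 CPM in WT and 28.8 to 31.6 CPM in the PCGF6-KO libraries (log2 fold change −1.26 ± 0.07 SE, edgeR adjusted p = 2.516e-06).

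Among the anterior neural factors listed, HESX1, FEZF1, OTX1 and OTX2 fell, while LHX5 and LHX2 rose. Of all tested genes, 8.70% fell and 14.9% rose. LHX5 and LHX2 had at most 6 counts in any WT library and passed the filter only through the PCGF6-KO libraries. Of 6 genes of the midbrain-hindbrain boundary, whose position GBX2 and OTX2 set, 3 were tested and 2 rose, PAX2 and PAX5. PAX2 had 1 count in each WT library and 14 to 46 in the PCGF6-KO libraries. PAX5 had 9 and 3 counts in WT and 18 to 39 in the PCGF6-KO libraries. Both PAX genes passed the filter only through the PCGF6-KO libraries, so the count of 2 carries no weight beyond their values. LMX1B was called only in clone 2. EN1, EN2 and WNT1 were not tested, with at most 8 counts in any library.

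MNX1, the factor of motor neurons and notochord, was low throughout. It had no counts in WT cells, 8 and 7 in clone 1 (0.418 and 0.385 CPM), and 15 and 13 in clone 2 (0.827 and 0.810 CPM). All PCGF6-KO libraries exceeded the floor, by a small margin. MNX1 was at least 3.35-fold higher in PCGF6-KO (edgeR adjusted p = 0.005061), at least 2.21-fold in clone 1 and at least 4.50-fold in clone 2. It fell below the filter when either library of clone 2 was left out. Of 9 motor neuron markers, 4 were tested and 3 rose (ISL1, ISL2 and SLC5A7), where 14.9% of all tested genes did. These 3 had at most 8 counts in any WT library and passed the filter only through the PCGF6-KO libraries. The count of 3 therefore carries no weight beyond the values of each gene. ISL2 was not called in clone 1. The 9 markers summed to 3.87 to 4.13 CPM in WT cells, 8.73 to 9.35 CPM in clone 1 and 12.8 to 14.2 CPM in clone 2. LHX4, tested and not called, read 3.13 and 3.42 CPM in WT, and ISL1 read 8.60 and 6.86 CPM in clone 2. OLIG2, NEUROG2, LHX3 and CHAT had at most 6 counts in any library. The part of motor neurons in the MNX1 level was not tested.

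Ordered by level per length, the WT sequence was NKX1-2 (33.7 ± 3.94 TPM, SD, n = 2), CDX4 (5.51 ± 1.43), GBX2 (0.871 ± 0.400) and CDX2 (0.0655 ± 0.000948), with CDX1, EVX1, EVX2 and MNX1 at 0. In clone 1 it was NKX1-2 (340 ± 46.7 TPM), GBX2 (54.4 ± 1.69), EVX1 (47.3 ± 1.42), CDX2 (40.4 ± 2.28), CDX1 (23.0 ± 5.46), CDX4 (17.3 ± 3.30), MNX1 (0.418 ± 0.0206) and EVX2 (0.227 ± 0.168). In clone 2 it was NKX1-2 (383 ± 27.5 TPM), CDX2 (77.1 ± 5.86), EVX1 (69.9 ± 2.41), CDX1 (44.4 ± 1.91), GBX2 (37.1 ± 0.359), CDX4 (19.4 ± 3.73), MNX1 (0.801 ± 0.00807) and EVX2 (0.115 ± 0.0105). GBX2 moved from the second place in clone 1 to the fifth in clone 2. The only neighbours with levels above 0 whose libraries overlapped were CDX1 and CDX4 in clone 1.

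The clones were then compared directly. By edgeR's quasi-likelihood test in a fit with 3 groups, 3 of the 7 tested genes were higher in clone 2 than in clone 1, where 3.73% of all tested genes were higher and 4.14% lower. CDX1 was higher by 1.03 ± 0.14 on the log2 scale (2.04-fold, 95% interval of the log2 difference 0.73 to 1.33, edgeR adjusted p = 9.835e-06). CDX2 was higher by 1.02 ± 0.09 (2.03-fold, 0.84 to 1.20, edgeR adjusted p = 2.25e-09). EVX1 was higher by 0.65 ± 0.09 (1.57-fold, 0.47 to 0.83, edgeR adjusted p = 5.592e-06), close to the fold threshold, and did not pass a test against a fold change of 1.5.

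The other 4 tested genes were not called between the clones. GBX2 went the opposite way, 1.38-fold lower in clone 2 (log2 difference −0.47 ± 0.10, interval −0.68 to −0.25, edgeR adjusted p = 0.001719), which is under the fold threshold. NKX1-2 was 0.26 ± 0.07 higher in clone 2 (0.11 to 0.41, edgeR adjusted p = 0.01364), also under the fold threshold, and it did not pass under DESeq2 (adjusted p = 0.266). It became 0.14 without clone 1 replicate 1 (edgeR adjusted p = 0.2035) and 0.19 without clone 2 replicate 2 (edgeR adjusted p = 0.18). MNX1 differed by 1.01 ± 0.51 (−0.04 to 2.07, edgeR adjusted p = 0.1799) and CDX4 by 0.27 ± 0.19 (−0.12 to 0.65, edgeR adjusted p = 0.3625). At these counts an interval for CDX4 that reaches 0.65 leaves a difference of the size seen for EVX1 possible. CDX1, CDX2, EVX1, MNX1 and NKX1-2 were higher in both clone 2 libraries than in both clone 1 libraries, as were 28.9% of all tested genes, and GBX2 was lower in both, as were 26.6%. PCGF6 counts, given above, also differed between the clones, and their part in these differences was not tested.

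**Figure D3:**
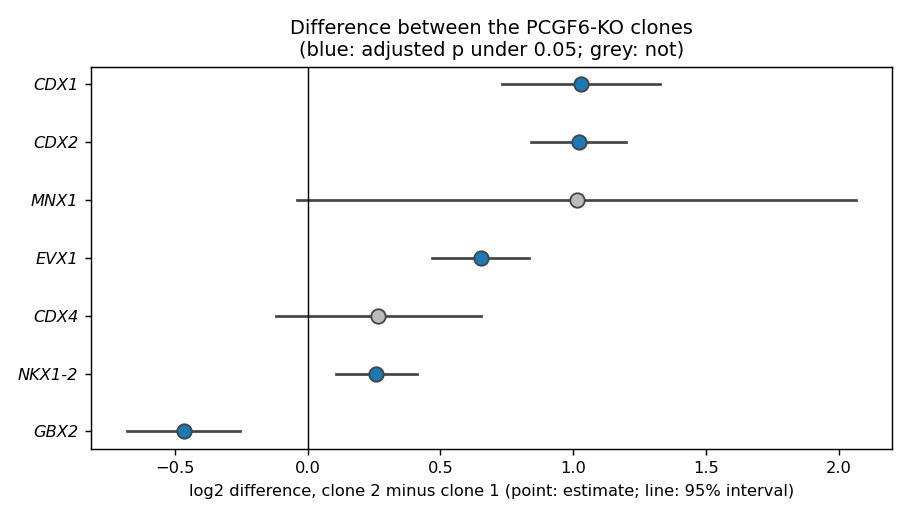
Log2 difference between clone 2 and clone 1 for the 7 tested genes (points, with lines for 95% intervals and blue for an adjusted p under 0.05). CDX1, CDX2 and EVX1 lie at 1.03, 1.02 and 0.65, GBX2 lies below 0 at −0.47, and the intervals of MNX1 and CDX4 cross 0.

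Genes of the same developmental setting, listed by their known roles, were read in the same fit. Of 21 partners of the posterior streak and tail bud, 18 rose and 1 fell, RIPPLY2, where 14.9% of all tested genes rose and 8.70% fell. LFNG and GDF11 did not pass the test. Some of the 18, among them FGF17, WNT3A and SP5, had at most 8 counts in any WT library and passed the filter only through the PCGF6-KO libraries. FGF17 and WNT3A, ligands of the tail bud, were at least 55.0-fold and 52.5-fold higher, and SP5 and TBXT, transcription factors of the streak that act in Wnt signalling, also rose. SP5 had 8 and 2 counts in WT cells and 3836 to 5098 in PCGF6-KO. TBXT had 0 and 12 counts in WT cells, 3508 and 3065 in clone 1, and 5515 and 4636 in clone 2. With so few and such unequal WT counts, the size of either fold rests on single WT libraries. The list had a median log2 fold change of 4.17, beside 0.00367 over all tested genes. Between the clones, 6 of the 21 were higher in clone 2 (MSGN1, WNT5A, WNT8A, TBXT, FGF4 and TBX6), where 3.73% of all tested genes were, with a median difference of 0.364.

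HOX genes are the best known targets of CDX proteins. All 8 HOX genes listed in paralog groups 1 to 3 were tested and rose. So did the 12 tested of 15 in groups 4 to 8 and the 13 tested of 16 in groups 9 to 13, where 14.9% of all tested genes rose. The HOX genes passed the filter largely through the PCGF6-KO libraries, so these counts carry no weight beyond the values of each gene. With genes at 0 in WT set to their bound, the median log2 fold changes were 5.73, 5.28 and 4.96, beside 0.00367 over all tested genes. Between the clones, of the anterior groups 1 to 3, only HOXB1 was called, as lower in clone 2, and the median difference was 0.0557. Of the 12 tested in groups 4 to 8, 6 were higher in clone 2 (median 0.783), and of the 13 tested in groups 9 to 13, 11 were (median 0.940), where 3.73% of all tested genes were higher and 4.14% lower. The corresponding differences of CDX1, CDX2 and CDX4 were 1.03, 1.02 and 0.27, set beside these medians without a test.

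The nearest family relatives stayed near 0. PDX1, GSX1, GSX2 and GBX1 had at most 3 counts in any library and NKX1-1 had none, so that none of the 5 was tested. MNX1-AS1 and MNX1-AS2 had at most 1 count.

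The nearest protein-coding gene on each side was read for every locus, 16 neighbours in all. Of the 13 that were tested, 5 were higher in PCGF6-KO, 2 were lower and 6 were not called, where 14.9% of all tested genes were higher and 8.70% lower. Of the 5, HOXA13, HOXD13 and SLC6A7 had at most 1 count in any WT library and passed the filter only through the PCGF6-KO libraries. The count of 5 therefore carries no weight beyond the values of each gene. The neighbours of CDX2 were close to silent, with PDX1 (34.6 kb away) at no more than 1 count and URAD (8.40 kb) at 0 in WT and 4 to 10 counts in PCGF6-KO. Beside CDX1, PDGFRB (10.9 kb) had 267 and 269 counts in WT and 717 to 909 in PCGF6-KO (log2 fold change 1.47, edgeR adjusted p = 3.061e-05), and SLC6A7 (5.50 kb) was at least 2.96-fold higher. The neighbours of NKX1-2 moved apart, with OAT (26.3 kb) higher by 1.21 and LHPP (11.8 kb) at −1.54 on the log2 scale (edgeR adjusted p = 1.075e-05 and 0.0007881).

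CDX4 rose between neighbours that did not. NAP1L2 (232 kb) fell by 0.79 on the log2 scale (edgeR adjusted p = 0.0005151) and CHIC1 (108 kb) read −0.35 (edgeR adjusted p = 0.119). The neighbours of MNX1, NOM1 at −0.16 and UBE3C at 0.13, were not called, nor was AGAP1 beside GBX2 at −0.21. HIBADH on the far side of EVX1 read −0.23 and LNPK on the far side of EVX2 read 0.19, and neither was called.

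The genes with the most similar profiles were found by the root mean square difference of centred log2(CPM + 0.5) over the 6 libraries, among 14166 genes with a mean of at least 1 CPM, leaving out the 8 genes themselves. For CDX2 they were APLNR (0.154), IGF2 (0.195) and HAND1 (0.276), and for CDX1 they were CDKN2B (0.199), TBX4 (0.207) and LIX1 (0.211). For EVX1 they were WNT5B (0.203), APLNR (0.250) and ACTA1 (0.268), and for CDX4 they were FJX1 (0.134), SOX9 (0.134) and ACAN (0.138). GBX2 was nearest to TNC (0.131), FST (0.143) and MYL7 (0.244), and NKX1-2 to PDE4D (0.0720), TGFB2 (0.0770) and SEMA3C (0.0797). MNX1 came nearest to PCDHAC2 (0.0316), S100A11 (0.0355) and SNAI1 (0.0441), although the 0.5 CPM that was added flattens a gene below 1 CPM. It also sets nearly all of the WT values of CDX1, CDX2 and EVX1, at 0 to 0.0614 CPM, and much of those of GBX2. Their contrast with WT is thereby capped, and their nearest genes can have far more WT counts, as ACTA1 did with 111 and 107. Among the 8 genes, CDX2 and EVX1 were the closest pair, at 0.158, nearer to each other than EVX1 was to any gene outside the set. The WT part of that likeness likewise rests on the added 0.5 CPM.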

How the data were processed

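RNA-seq counts of 6 libraries of PGP1 cells were used, 2 each of WT, clone 1 and clone 2. The authors trimmed reads with Trim Galore (0.6.2), aligned them to GRCh38 with HISAT2 (2.1.0), took the number of reads on each gene with featureCounts, and deposited these raw counts with the gene lengths (unit: bases). Which annotation release was used, whether strand was counted and how multi-mapped reads were handled are not given in the sources used here. The other 12 of the 18 samples, ChIP-seq libraries, were not analysed here.

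Genes were filtered with edgeR's filterByExpr on genotype, scaled by TMM and tested with glmQLFit and glmQLFTest (edgeR 4.0.16, limma 3.58.1, R 4.3.3). The first fit held 2 groups, the 4 PCGF6-KO libraries and WT, and another held WT and each clone as 3 groups. The first fit took the 4 PCGF6-KO libraries as separate replicates, although they came from only 2 clones. Its p-values therefore do not take the clone as the unit. Genes past an absolute log2 fold change of 0.6 were called where their p, adjusted after Benjamini and Hochberg, was under 0.05. Standard errors were taken from the fold change and its F statistic. TPM were computed from the counts and the deposited lengths. A fold against WT libraries that were all at 0 is a bound against 3 counts per library, and a fold against 1 to 3 counts carries an exact interval. The script was tested on simulated data.

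Alternatives were upper-quartile or RLE scaling, DESeq2 (1.42.0), other filters and thresholds, a test against a fold change of 1.5, averaging the clones, fitting only those groups that were compared, a replicate block, and leaving out each library. The 8 genes, the lists and the tests were chosen with earlier results of these data known. Named in the text are the 8 genes, PCGF6, up to 4 called genes of each list with the largest change, list genes beside one of the 8, the 3 most similar profiles and the nearest protein-coding genes. POU5F1, the genes at or near 0, the genes not called, the further genes called within a list and the pairs between clones were named after their values were seen. A gene of the anterior neural list is not reported here.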

Additional observations from a re-analysis of the deposited data

Results flagged for a closer look

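By edgeR's quasi-likelihood test of clone 2 against clone 1, 5 of the 7 tested genes differed at an adjusted p under 0.05 alone, as did 19.5% of all tested genes, and 3 of the 5 also passed the fold threshold. CDX1 and CDX2 were higher in clone 2 by 1.03 and 1.02 on the log2 scale (edgeR adjusted p = 9.835e-06 and 2.25e-09). EVX1 was higher by 0.65 (edgeR adjusted p = 5.592e-06), but its adjusted p was 1 in the test against a fold change of 1.5. GBX2, at −0.47 (edgeR adjusted p = 0.001719), and NKX1-2, at 0.26 (edgeR adjusted p = 0.01364), were under the fold threshold. For NKX1-2 the adjusted p was 0.266 under DESeq2, 0.2035 without clone 1 replicate 1 and 0.18 without clone 2 replicate 2 (both edgeR). Both libraries of a clone lay on the same side of both libraries of the other clone for each of these genes. The clones also differed in PCGF6 counts, and what part that has in the differences was not tested.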

How the results depend on the processing

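The 7 tested genes were called higher in PCGF6-KO, in clone 1 and in clone 2 under DESeq2, both other scalings, all filters and thresholds and the mean of the clones, with 6 called in clone 1 when only clone 1 and WT were fitted, where MNX1 was not tested. When each library was left out, 6 to 7 were called in each of these comparisons, MNX1 being lost without either library of clone 2. Of the fold changes of single genes, none changed sign. Between the clones 3 genes were called, 3 also when any library was left out, and 5 at an adjusted p alone, where GBX2 and NKX1-2 were added. EVX1 was lost in the test against a fold change of 1.5, which left 2. Over all tested genes, DESeq2 called 810 between the clones in place of 1390, and the test against a fold change of 1.5 called 403 there and 2621 in PCGF6-KO. An adjusted p alone called 3442 between the clones, 6556 in PCGF6-KO, 8002 in clone 1 and 8904 in clone 2, in place of 1390, 4167, 4379 and 5197. Of the genes of the other lists, cell type markers left out, 62 were called, with 64 under DESeq2, 69 with no filter and 58 to 62 without each library.

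The deviations of libraries with the same replicate number had a Pearson r of 0.084, 0.083 and 0.199 and a Spearman rho of 0.152, 0.128 and 0.278 over 13420 genes. These values are a hint from the data and not the design. All 6 libraries correlated best with their own number, which must follow where all Pearson values are positive and adds nothing to them. By the Pearson values the numbers were not taken as pairs, and the rank values leave this uncertain. With the replicate block, 7 genes were called in each comparison with WT and 3 between the clones, 59 genes of those lists were called, and 3876 genes were called in all for PCGF6-KO against WT in place of 4167. Depth limits EVX2 and MNX1, which had at most 6 and 15 counts.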
